A study of Mus musculus with 8 samples.

Results

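Nuclear factor kappa B (NF-kB) is a family of dimeric transcription factors, and 10 genes that encode its subunits and feedback inhibitors were followed across 4 lines of EL4 cells. The genes were Nfkb1, Nfkb2, Rel, Rela and Relb, which encode the subunits, and Nfkbia, Nfkbie, Nfkbiz, Bcl3 and Tnfaip3, which encode proteins that bind NF-kB or restrain the signal upstream of it. They were selected by name from the 54146 genes in the quantification, with earlier results of these data known. The transcripts of each gene were summed. EL4 is a mouse T lymphoblast line of C57BL/6 origin that expresses Gata3 and has very little RNA of Tbx21, the gene for T-bet. GFP + Plum cells carried the fluorescent proteins GFP and Plum as controls. T-bet + Plum cells expressed FLAG-tagged T-bet, GFP + GATA3 cells expressed HA-tagged GATA3, and T-bet + GATA3 cells expressed both tagged factors. Every line was treated with PMA at 50 ng/ml and ionomycin at 1 µM for 4 h before RNA was extracted. Unstimulated cells were not analysed here, so the levels below are those of stimulated cells and give no response to stimulation. The tagged factors were expressed constitutively, and each condition is represented by 1 line. The 8 libraries, 2 per line, are poly-A+ RNA-seq. The study describes biological replicates as harvests of a line on separate days, and the sample descriptions do not say more, so p-values measure the spread between these libraries only.

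In resting T cells NF-kB dimers are held in the cytoplasm by inhibitors of the IkB family. PMA activates protein kinase C, and with it BCL10, MALT1 and the IkB kinase, which marks the IkB proteins for degradation and frees the dimers to enter the nucleus. The genes for IkBα (Nfkbia), IkBε (Nfkbie), A20 (Tnfaip3) and several subunits are themselves NF-kB targets, so that the pathway renews its own components and its own brakes. In T cells c-Rel, the product of Rel, is known for its part in the activation of Il2 and of other cytokine genes. T-bet and GATA3 are the lineage-defining factors of TH1 and TH2 cells, respectively.

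Expression of T-bet was accompanied by higher levels of Rel, Nfkb1 and Nfkb2 among the subunits and of Nfkbia and Nfkbie among the inhibitors, whereas Rela, Relb, Nfkbiz and Tnfaip3 did not pass the test. Rel changed most, by 2.85-fold (log2 fold change 1.51, standard error 0.128) when the effect of T-bet was averaged over the lines without and with HA-GATA3. Nfkbia followed at 2.19-fold, Nfkbie at 1.94-fold, Nfkb1 at 1.79-fold and Nfkb2 at 1.55-fold. For HA-GATA3, 0 of the 9 genes tested passed in either pair of lines, where 0.0203% and 0.0338% of all genes did, so these counts are no result about the 9. In these bulk samples, a change in the fraction of cells that express a gene and a change in RNA per cell cannot be told apart.

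Of the 10 genes, 9 passed edgeR's filter on low counts and were tested together with all 14791 genes that passed it. Bcl3, which encodes a nuclear IkB-like coactivator, was at most 0.62 TPM, with 0 to 3 counts per library, and was not tested. Total counts per library ran from 8038565 in the first T-bet + Plum library to 16003519 in the second GFP + Plum library, so the first T-bet + Plum library had the least precision for single genes. Mitochondrial transcripts took 2.24% to 2.88% of the counts. The summed level of 8 T cell markers was 965 to 1297 TPM in every library, with Lat at 351 to 514 TPM and Cd247 at most 0.511 TPM. That of 4 B cell markers was at most 0.257 TPM, with Cd79b at 0 in every library, that of 4 fibroblast markers was at most 0.65 TPM, and that of 5 myeloid markers was 2.5 to 5.26 TPM. The introduced genes were high where the labels place them. Tbx21 rose by 5.92 on the log2 scale in the lines labelled with T-bet, and Gata3 by 2.65 in those labelled with GATA3 (edgeR's quasi-likelihood test, FDR = 4.53e-06 and FDR = 0.000713).

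To show what lies upstream of these genes, the 250 bases before the transcription start were taken from RefSeq (GRCm38.p6) and any part that overlaps an annotated exon was removed. The table of promoters held 7 of the 10 genes, with 10 promoters. The sequences below, 5′ to 3′ in the sense of transcription, are those of the 4 genes with entries that rose with T-bet and of Rela, which did not pass the test. Matches to the kB consensus, the binding motif of NF-kB dimers, on either strand are in capitals. The Rel promoter (chr11:23770971-23771219, minus strand) held 2 overlapping matches, the Nfkbia promoter (chr12:55492648-55492897, minus strand) 1, the Nfkbie promoter (chr17:45555450-45555699, plus strand) 1 and the Nfkb2 promoter (chr19:46304487-46304736, plus strand) 3, of which 2 overlap. The Rela sequence (chr19:5637291-5637482, plus strand) held 0 matches.
Rel: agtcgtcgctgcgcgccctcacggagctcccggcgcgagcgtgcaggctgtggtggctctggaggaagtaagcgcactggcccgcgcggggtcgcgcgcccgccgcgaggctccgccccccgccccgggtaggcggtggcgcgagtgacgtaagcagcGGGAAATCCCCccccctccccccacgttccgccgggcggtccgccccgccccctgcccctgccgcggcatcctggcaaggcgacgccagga
Nfkbia: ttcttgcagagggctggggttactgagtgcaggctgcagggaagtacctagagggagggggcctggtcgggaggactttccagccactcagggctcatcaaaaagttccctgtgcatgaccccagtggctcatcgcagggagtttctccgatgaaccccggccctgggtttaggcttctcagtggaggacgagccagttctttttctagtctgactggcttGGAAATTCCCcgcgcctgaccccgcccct
Nfkbie: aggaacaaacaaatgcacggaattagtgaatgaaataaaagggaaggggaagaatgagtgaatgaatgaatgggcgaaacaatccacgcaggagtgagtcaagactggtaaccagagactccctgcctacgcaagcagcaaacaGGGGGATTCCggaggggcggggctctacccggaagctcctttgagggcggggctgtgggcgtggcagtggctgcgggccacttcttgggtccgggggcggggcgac
Nfkb2: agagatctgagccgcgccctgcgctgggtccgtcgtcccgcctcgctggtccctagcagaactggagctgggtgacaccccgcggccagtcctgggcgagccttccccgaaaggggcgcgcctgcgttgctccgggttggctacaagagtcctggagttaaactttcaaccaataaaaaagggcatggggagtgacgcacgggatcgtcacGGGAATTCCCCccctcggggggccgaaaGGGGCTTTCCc
Rela: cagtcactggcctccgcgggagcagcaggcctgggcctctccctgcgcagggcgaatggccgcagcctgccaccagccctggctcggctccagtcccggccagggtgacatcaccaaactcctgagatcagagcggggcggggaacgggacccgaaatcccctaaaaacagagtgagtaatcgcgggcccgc

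The kB consensus was present in 7.25% of the 32851 RefSeq promoters of the same length. The T-box motif GGTGTGA was in 3.33% of them, its longer form AGGTGTGA in 1.12%, the GATA motifs AGATAA and TGATAA in 9.99% and 7.94%, and the AP-1 motif TGAGTCA in 4.46% (both strands, and any match to AGGTGTGA also contains GGTGTGA). Neither T-box nor GATA motifs had a match in the 5 sequences above, and TGAGTCA had 1, in Nfkbie. Nfkb2 has 2 more RefSeq starts, close together, with 1 kB match each in the untrimmed window, and Bcl3 held 0. Of the 2 starts of Tnfaip3, the upstream one held 2 kB matches in its untrimmed window and the other held 0. These matches describe letters in a short window and are not evidence of binding.

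c-Rel, the subunit with the largest difference, contains a transactivation domain and is prominent in lymphocytes. Rel (ENSMUSG00000020275.9, chromosome 11, 23736847 to 23770970, minus strand) was at 42.4 and 46.7 TPM (a level corrected for transcript length and library size) in GFP + Plum and at 37.2 and 32.4 TPM in GFP + GATA3. With T-bet it was at 122.3 and 92.6 TPM in T-bet + Plum and at 87.1 and 114.3 TPM in T-bet + GATA3. All 4 T-bet libraries lay above all 4 libraries without T-bet. The separation was also seen in CPM, counts scaled to library size by TMM, where the mean was 304 ± 46.2 for GFP + Plum and 227 ± 22.6 for GFP + GATA3, against 752 ± 143 for T-bet + Plum and 742 ± 78.7 for T-bet + GATA3 (SD, 2 libraries each). The log2 fold change was 1.31 (standard error 0.18) between the pair of lines without HA-GATA3 (T-bet + Plum against GFP + Plum) and 1.71 (standard error 0.182) between the pair with it (T-bet + GATA3 against GFP + GATA3), and the averaged effect was 1.51 (95% interval 1.21 to 1.80). The FDRs by edgeR's quasi-likelihood test with Benjamini-Hochberg adjustment were 0.00551, 0.00176 and 0.000238. Rel stayed below an FDR of 0.05 in all 15 alternative fits of each of these comparisons, with an averaged log2 fold change between 1.37 and 1.59. Only 1 Rel transcript, of 7466 bases, is annotated, so this gene needed no split between isoforms.

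Rela encodes p65, the other widely used transactivating subunit and the usual partner of p50 in the canonical pathway. Rela (ENSMUSG00000024927.7, chromosome 19, 5637483 to 5648130, plus strand) was at 32.5 and 36.5 TPM in GFP + Plum, 37.3 and 46.3 TPM in GFP + GATA3, 32.9 and 41.2 TPM in T-bet + Plum and 37.3 and 44.6 TPM in T-bet + GATA3. The libraries with and without T-bet overlapped throughout. The averaged log2 fold change was 0.15 (95% interval -0.13 to 0.43, edgeR FDR = 0.479), so these data allow a rise of up to 0.43 on the log2 scale. Its values for the separate pairs of lines, 0.14 and 0.15, changed sign in some alternatives, to between -0.06 and -0.01.

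RelB, the subunit of the alternative pathway, pairs mainly with p52. Relb (ENSMUSG00000002983.17, chromosome 7, 19606217 to 19629438, minus strand) was at 31.5 and 30.1 TPM in GFP + Plum, 32.6 and 36.3 TPM in GFP + GATA3, 24.8 and 24.4 TPM in T-bet + Plum and 24.5 and 29.9 TPM in T-bet + GATA3. On this scale the T-bet libraries lay below the others, with the nearest values 29.9 and 30.1 TPM, whereas in CPM the groups overlapped. The averaged log2 fold change was -0.17 (95% interval -0.37 to 0.03, edgeR FDR = 0.242). Transcripts annotated as targets of nonsense-mediated decay took 13.4% to 30.2% of Relb TPM, and kallisto's division between 10 transcripts is an estimate.

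Nfkb1 and Nfkb2 encode the precursors p105 and p100, which are processed to the DNA-binding subunits p50 and p52 and, unprocessed, act as IkB-like inhibitors. Nfkb1 (ENSMUSG00000028163.17, chromosome 3, 135584655 to 135691547, minus strand) was the most abundant of the 10 genes, at 235 and 240.5 TPM in GFP + Plum, 200.1 and 226 TPM in GFP + GATA3, 369.9 and 395.5 TPM in T-bet + Plum and 332 and 373 TPM in T-bet + GATA3. The T-bet libraries did not overlap the others, and the lines ranked from GFP + GATA3 through GFP + Plum and T-bet + GATA3 to T-bet + Plum, with overlap between the last pair. Its log2 fold change was 0.74 (standard error 0.129, edgeR FDR = 0.0154) without HA-GATA3 and 0.94 (standard error 0.13, FDR = 0.0055) with it. The averaged effect was 0.84 (95% interval 0.63 to 1.05, FDR = 0.000801) and passed in all 15 alternatives. The first of the single-line calls was lost without the first GFP + Plum library (FDR = 0.0537) or without either T-bet + Plum library (FDR = 0.0727 and 0.139), and the second without the first GFP + GATA3 library (FDR = 0.0649).

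Nfkb2 (ENSMUSG00000025225.14, chromosome 19, 46304320 to 46312385, plus strand) was at 94.1 and 108.8 TPM in GFP + Plum, 94.2 and 112.4 TPM in GFP + GATA3, 178.5 and 137 TPM in T-bet + Plum and 112.6 and 161.7 TPM in T-bet + GATA3. The lowest T-bet library and the highest library without T-bet were almost at the same level. The averaged log2 fold change was 0.63 (95% interval 0.31 to 0.95, edgeR FDR = 0.02), and neither line alone passed, at 0.67 (FDR = 0.0965) and 0.58 (FDR = 0.144). The averaged call was lost without the first GFP + GATA3 library (FDR = 0.0769), the first T-bet + Plum library (FDR = 0.0753) or the second T-bet + GATA3 library (FDR = 0.0578), and with limma on log2(TPM + 1) (FDR = 0.0758). A gene on the opposite strand, AC114539.1, overlaps Nfkb2, and the quantification is not stated to use strand.

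**Figure D1:**
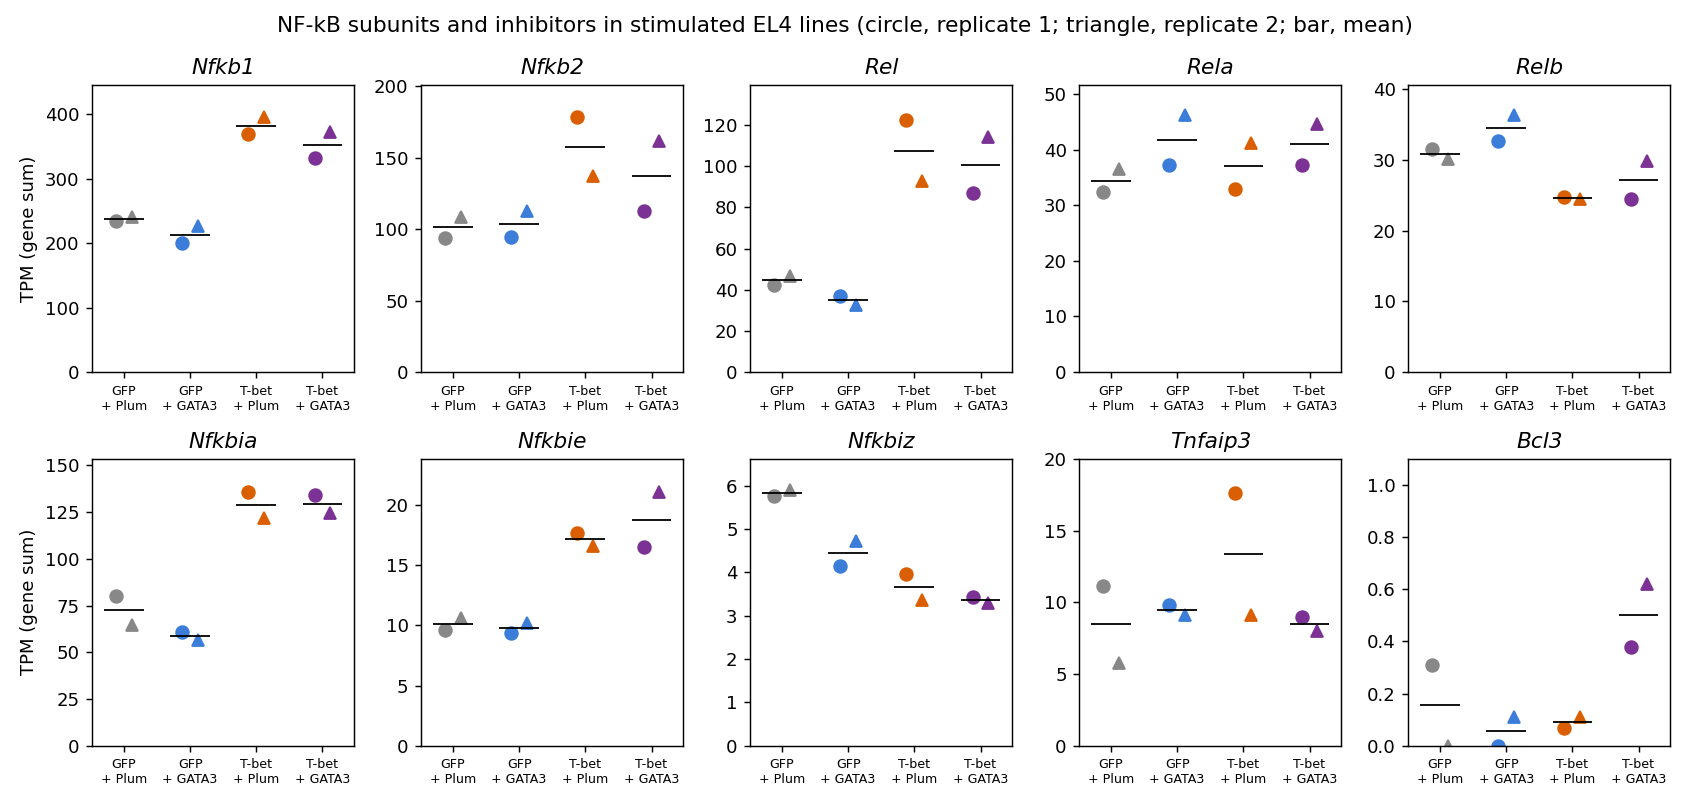
Level of each gene in TPM, summed over its transcripts, in each of the 8 libraries (circles, replicate 1; triangles, replicate 2), with the mean of each line as a bar; every axis starts at 0 and has its own range. The 4 T-bet libraries lie above the others for Rel, Nfkb1, Nfkb2, Nfkbia and Nfkbie, with the nearest Nfkb2 values at 112.6 and 112.4 TPM. They lie below the others for Relb and Nfkbiz in TPM, with the nearest Relb values at 29.9 and 30.1 TPM. In CPM both of these genes overlap, and neither passed the test. Rela levels overlap between the libraries with and without T-bet. The share of all genes that separate in this way was not counted.

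Because the subunits act as dimers, their relative amounts were also described. Over the 5 subunit genes together, the summed level was 401 to 463 TPM without T-bet and 593 to 728 TPM with T-bet. Rel made up 7.15% to 10.1% of that sum without T-bet and 13.4% to 16.8% with T-bet. The share of Rela was 7.45% to 10.2% without and 4.52% to 6.3% with T-bet. That of Relb was 6.51% to 8.13% and 3.4% to 4.13%, so neither overlapped between the groups. These are shares of a sum that was higher with T-bet, and the averaged log2 fold changes of Rela and Relb themselves, 0.15 and -0.17, did not pass. Nfkb1 held 49.9% to 54% and 50.8% to 57.3%, and Nfkb2 21.6% to 24.8% and 19% to 24.5%, ranges that overlap. The ratio of Rel to Rela TPM was 1.31 and 1.28 in GFP + Plum, 0.996 and 0.701 in GFP + GATA3, 3.72 and 2.25 in T-bet + Plum and 2.33 and 2.56 in T-bet + GATA3. Shares and ratios of transcripts say nothing of protein amounts, and no test was made of them.

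**Figure D2:**
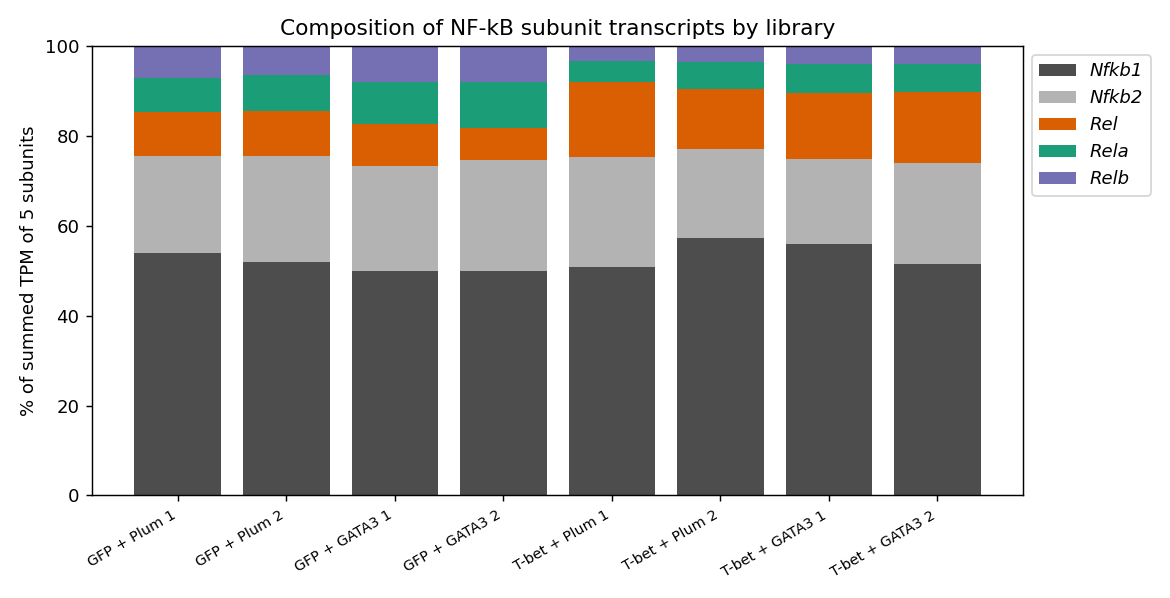
Share of each subunit gene in the summed TPM of the 5 subunit genes, in % (vertical axis, 0 to 100), with 1 stacked bar for each library. The orange segment, Rel, spans 7.15% to 10.1% in the 4 bars on the left, without T-bet, and 13.4% to 16.8% in the 4 on the right.

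The transcripts assigned to Nfkb1 were mainly not those of the full-length coding models. The leading transcript in every library was Nfkb1-209, annotated as a target of nonsense-mediated decay, with 41.5% to 45.9% of the gene's TPM (85.2 to 173 TPM). Nfkb1-203, a coding model of the 3′ end with 12 exons, held 18.4% on average and the retained-intron transcript Nfkb1-202 14.5%. Nfkb1-206 and Nfkb1-201, whose coding sequence is complete at 2913 bases, held 4.74% and 0.55%. Nfkb1-209 has a 17-base exon, the sixth of 25 (chr3:135639140-135639156, minus strand, GRCm38, Gencode M21), which is in 0 of the other annotated Nfkb1 transcripts, and its last exon also has bounds of its own. The 17-base exon lies inside the coding sequence annotated for Nfkb1-209, and its length leaves a remainder of 2 on division by 3, so that it shifts the reading frame and the coding sequence ends after 384 bases. The transcript around it is shown 5′ to 3′ because the largest share of Nfkb1 rests on this model, with the exon in capitals and 20 bases of its neighbours in lower case.
Nfkb1-209 exons 5 to 7: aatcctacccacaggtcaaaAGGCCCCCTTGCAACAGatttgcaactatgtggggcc

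The share of Nfkb1-209 was 42.6% to 45.9% without T-bet and 41.5% to 43.8% with T-bet, ranges that overlap. Coding transcripts together took 16.5% to 27.8% without and 22.6% to 29.2% with T-bet. This share differed by replicate number, at 16.5% to 24.1% in the first libraries of the lines and 25.1% to 29.2% in the second. Retained-intron transcripts went the other way, at 23.8% to 29% in the first libraries and 16% to 20.4% in the second. kallisto divides fragments among transcripts that share most of their exons, and reads across the 17-base exon cannot be counted from these values, so whether this exon was used in the cells was not tested.

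Nfkbia encodes IkBα, the principal inhibitor that is degraded on stimulation and resynthesised under NF-kB control. Nfkbia (ENSMUSG00000021025.8, chromosome 12, 55489410 to 55492647, minus strand) was at 80 and 64.7 TPM in GFP + Plum, 60.7 and 56.4 TPM in GFP + GATA3, 135.6 and 121.9 TPM in T-bet + Plum and 134.2 and 124.3 TPM in T-bet + GATA3. The lowest T-bet library, at 121.9 TPM, was well above the highest of the others, at 80 TPM. The log2 fold change was 0.90 (standard error 0.142, edgeR FDR = 0.00993) without HA-GATA3 and 1.36 (standard error 0.144, FDR = 0.00175) with it, and the averaged effect was 1.13 (95% interval 0.90 to 1.37, FDR = 0.0003). The averaged call held in all 15 alternatives, between 0.98 and 1.21. The call without HA-GATA3 was lost without the second GFP + Plum library (FDR = 0.0511) or either T-bet + Plum library (FDR = 0.0655 and 0.0675). A retained-intron transcript took 33.1% to 42.3% of Nfkbia TPM, with no separation by T-bet. The ratio of Nfkbia to Rela TPM was 1.22 to 2.47 without and 2.79 to 4.12 with T-bet.

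IkBε, from Nfkbie, is a slower acting inhibitor that is associated with c-Rel and p65 complexes. Nfkbie (ENSMUSG00000023947.7, chromosome 17, 45555703 to 45563169, plus strand) was at 9.64 and 10.6 TPM in GFP + Plum, 9.35 and 10.2 TPM in GFP + GATA3, 17.7 and 16.6 TPM in T-bet + Plum and 16.5 and 21.1 TPM in T-bet + GATA3. The groups with and without T-bet were well separated, whereas both lines without T-bet overlapped each other, as did both lines with it. The log2 fold change was 0.79 (standard error 0.153, edgeR FDR = 0.0218) without and 1.12 (standard error 0.154, FDR = 0.0055) with HA-GATA3, and 0.96 (95% interval 0.71 to 1.21, FDR = 0.000943) on average, a call that held in all 15 alternatives. The single-line calls were less firm. Without HA-GATA3 the FDR was 0.0712 when the first GFP + Plum library was left out and 0.118 and 0.122 without either T-bet + Plum library. With HA-GATA3 it was 0.0588 and 0.0522 without either GFP + GATA3 library, and limma on log2(TPM + 1) gave FDRs of 0.105 and 0.0505 for the separate lines.

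Nfkbiz encodes IkBζ, a nuclear member of the IkB family that acts as a cofactor. Nfkbiz (ENSMUSG00000035356.17, chromosome 16, 55811375 to 55838899, minus strand) was at 5.75 and 5.89 TPM in GFP + Plum, 4.14 and 4.73 TPM in GFP + GATA3, 3.96 and 3.37 TPM in T-bet + Plum and 3.44 and 3.3 TPM in T-bet + GATA3. GFP + Plum was highest, and the T-bet libraries lay below the others in TPM but overlapped GFP + GATA3 in CPM. The log2 fold change was -0.66 (95% interval -1.08 to -0.24, edgeR FDR = 0.0841) for T-bet + Plum against GFP + Plum, -0.19 (95% interval -0.62 to 0.23, FDR = 0.634) in the presence of HA-GATA3 and -0.42 (95% interval -0.72 to -0.12, FDR = 0.0648) on average. With libraries scaled by size only, the averaged value was -0.48 and passed (FDR = 0.0376).

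Tnfaip3 encodes A20, which edits ubiquitin chains on signalling proteins upstream of the IkB kinase. Tnfaip3 (ENSMUSG00000019850.11, chromosome 10, 19000910 to 19015657, minus strand) was at 11.2 and 5.75 TPM in GFP + Plum, 9.79 and 9.13 TPM in GFP + GATA3, 17.6 and 9.14 TPM in T-bet + Plum and 8.99 and 8.01 TPM in T-bet + GATA3. In both lines with Plum the replicates differed by more than the means of the lines did, and the groups overlapped. The averaged log2 fold change was 0.38 (95% interval -0.11 to 0.87, edgeR FDR = 0.287), and the interval includes a rise of the size seen for Nfkb1. The values were 0.66 (FDR = 0.278) without and 0.10 (FDR = 0.901) with HA-GATA3, and 1 library left out moved the former between 0.19 and 1.01 and the averaged value between 0.14 and 0.55. With no filter on low counts the former passed, at 0.63 (FDR = 0.0247). The value with HA-GATA3 was -0.14 with limma on log2(TPM + 1) and -0.11 without the first T-bet + GATA3 library. Tnfaip3 has a pair of long coding transcripts, of 4422 and 4334 bases. The longer was at 3.46 to 7.19 TPM. The shorter was at 2.78 to 6.54 TPM in the first libraries of the lines and at 0.003 to 1.6 TPM in the second. Tnfaip3 as a whole was also higher in the first library of every line, though by little in both lines with GATA3.

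Bcl3 (ENSMUSG00000053175.17, chromosome 7, 19808462 to 19822770, minus strand) was listed at 0.31 and 0 TPM in GFP + Plum, 0 and 0.11 TPM in GFP + GATA3, 0.07 and 0.11 TPM in T-bet + Plum and 0.38 and 0.62 TPM in T-bet + GATA3. These values rest on at most 3 counts, and 3 counts correspond to 0.187 to 0.373 CPM, so a difference between the lines was not detectable at this depth. Antisense genes Gm16175 and Gm16174 overlap Bcl3. A floor of this kind covers counting error only.

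Across all genes tested, 8.55% rose and 6.61% fell in the averaged effect of T-bet at an FDR of at most 0.05. Of the 9 NF-kB genes tested, 5 rose (Rel, Nfkbia, Nfkbie, Nfkb1 and Nfkb2) and 0 fell. Their median log2 fold change was 0.63, against 0.02 over all genes. For T-bet + Plum against GFP + Plum, 4 of 9 rose against a background of 4.04%, and for T-bet + GATA3 against GFP + GATA3, 4 of 9 against 3.73%. Rel, Nfkbia, Nfkbie and Nfkb1 made up both counts. In T-bet + GATA3 against GFP + Plum, which shares its control libraries with the first of these, 4 of 9 rose against 3.44%, with log2 fold changes of 1.29 for Rel (FDR = 0.00639), 1.03 for Nfkbia (FDR = 0.00607), 1.00 for Nfkbie (FDR = 0.00929) and 0.70 for Nfkb1 (FDR = 0.021). This last call for Nfkb1 was lost without the first GFP + Plum library (FDR = 0.0787), the second T-bet + Plum library (FDR = 0.058), or either T-bet + GATA3 library (FDR = 0.108 and 0.0706), and with limma on log2(TPM + 1) (FDR = 0.0851), which also lost that for Nfkbie (FDR = 0.0763). Under the study's stricter threshold, which also asks for a log2 fold change above 1.5 in size, Rel was the only one of the 9 to pass, in the averaged effect and in T-bet + GATA3 against GFP + GATA3. Its averaged value of 1.51 lay at that threshold and fell below it in several alternatives (1.37 to 1.59), and the other value of 1.71 did so with limma on log2(TPM + 1) (1.496).

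**Figure D3:**
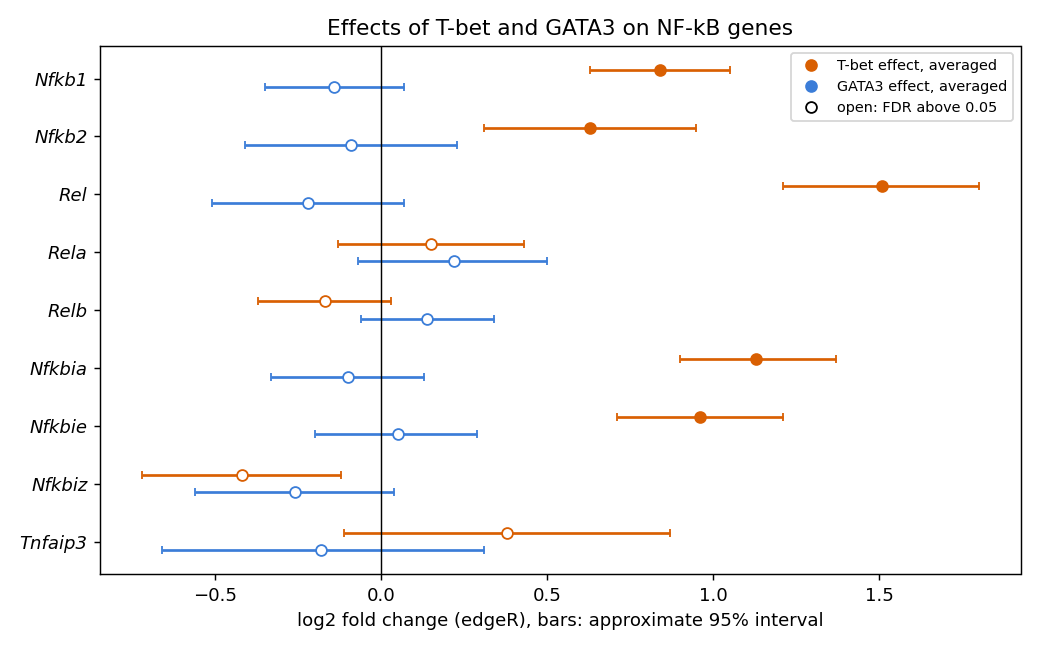
Log2 fold change (horizontal axis) of the 9 genes tested for the effect of T-bet (orange) and of HA-GATA3 (blue), each averaged over the lines without and with the other factor, with approximate 95% intervals; filled points have an edgeR FDR of at most 0.05. The orange points of Rel, Nfkbia, Nfkbie, Nfkb1 and Nfkb2 are filled, from 1.51 down to 0.63, and every blue interval includes 0.

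HA-GATA3 was introduced into cells that already express Gata3, and the mean level of Gata3 was 46.5 ± 9.54 CPM for GFP + Plum and 30.3 ± 6.44 CPM for T-bet + Plum, against 304 ± 30 CPM for GFP + GATA3 and 184 ± 27.5 CPM for T-bet + GATA3 (SD, 2 libraries each). Gata3 RNA was thus lower in the lines with T-bet (log2 fold change -0.67, edgeR FDR = 0.0174), and the part of this in the values above was not tested. In GFP + GATA3 against GFP + Plum, 0 of 9 genes passed edgeR's test, against 0.0203% of all genes. Of all 14791 genes, 547 had an unadjusted p below 0.05, and of the 9 NF-kB genes 2 had. These were Rel, with a log2 fold change of -0.42 (95% interval -0.83 to -0.01), and Nfkbiz, with -0.49 (95% interval -0.91 to -0.08). Nfkbia was at -0.33 (95% interval -0.66 to 0.00). In T-bet + GATA3 against T-bet + Plum, 0 of 9 passed against 0.0338% of all genes, with log2 fold changes between -0.46 and 0.22. Here 0 of 9 had an unadjusted p below 0.05, against 559 of 14791 genes. In the averaged effect of HA-GATA3, 0 of 9 passed against 0.0608%, with values between -0.26 and 0.22. DESeq2 and limma also called 0 of these genes in the 3 comparisons. The narrowest of the averaged intervals, that of Relb, ran from -0.06 to 0.34, so changes of this size cannot be told from none.

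Whether HA-GATA3 altered the effect of T-bet was tested as an interaction. Here 0 of 9 genes passed, and 0% of all genes did, although 381 genes had an unadjusted p below 0.05 and DESeq2 called 15 genes, none of them among these 9. The largest value relative to its error was that of Nfkbia, whose effect of T-bet was higher by 0.45 on the log2 scale in the presence of HA-GATA3 (95% interval -0.01 to 0.92). For the other genes the difference was between -0.56 and 0.46. The calls listed above for the separate pairs of lines are thus not shown to differ from each other.

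The proteins that carry the signal to NF-kB formed a second group, of 25 genes, all of which were tested. In the averaged effect of T-bet 5 of 25 passed, of which 4 rose, with a median log2 fold change of 0.04, where 8.55% of all genes rose and 6.61% fell. Map3k14, the NF-kB inducing kinase of the alternative pathway, was at 3.15 to 3.65 TPM in the libraries without T-bet and 4.52 to 5.95 TPM in those with it, a log2 fold change of 0.73 (standard error 0.128, edgeR FDR = 0.0074). It kept its call without each library in turn and lost it with limma on log2(TPM + 1) (FDR = 0.0835). Traf5, an adaptor of TNF receptor family members, was at 6.77 to 19.9 TPM without and 20.9 to 36.1 TPM with T-bet, with a log2 fold change of 1.32 (standard error 0.302, FDR = 0.0223). That call was lost without the second GFP + GATA3 library (FDR = 0.0675), either T-bet + Plum library (FDR = 0.0537 and 0.0869) or the first T-bet + GATA3 library (FDR = 0.0714).

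A further pair of genes that rose were near the threshold. Rbck1, a subunit of the linear ubiquitin ligase complex, rose by 0.30 (FDR = 0.0361) and Fbxw11, a substrate adaptor of the ligase for phosphorylated IkB, by 0.29 (FDR = 0.0421). Rbck1 lost its call without any 1 of the 8 libraries (FDR = 0.0628 to 0.145), and Fbxw11 without any but the second GFP + Plum library (FDR = 0.0822 to 0.172). The count of 5 was between 1 and 4 in the fits that left out 1 library.

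Of 15 other inhibitors, 1 passed in the averaged effect of T-bet, where 8.55% of all genes rose and 6.61% fell, and the median log2 fold change was 0.12. That gene was Zc3h12a, which encodes regnase-1, an RNase that degrades cytokine transcripts, with 6.71 to 9.18 TPM without and 10.1 to 11.6 TPM with T-bet and a log2 fold change of 0.48 (standard error 0.133, edgeR FDR = 0.0459). Its call was kept without the second GFP + Plum library and lost without any 1 of the other 7 (FDR = 0.0759 to 0.161). The next smallest p-values were those of Cyld, a deubiquitinase, at 0.49 (FDR = 0.0594), and Rnf11, a partner of A20, at 0.27 (FDR = 0.0596). The number called was 0 to 2 without single libraries.

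Target genes of NF-kB outside the 10 formed the last group, of 28 genes, of which 25 were tested. Like the other lists, it was chosen with earlier results of these data known, so the shares of all genes are given for scale only. With T-bet 9 of 25 rose and 0 fell, against 8.55% and 6.61% of all genes, and the median log2 fold change was 0.69, against 0.02 over all genes. With no filter on low counts the count was 17, where 3179 of 30930 genes were called in either direction. With replicate number as a block it was 15, where 3063 of 14791 genes were called. The chemokine genes Ccl3 and Ccl4 differed most, with Ccl3 at 35.9 to 171 TPM without and 4576 to 8260 TPM with T-bet (log2 fold change 6.35, standard error 0.232, edgeR FDR = 4.53e-06), and Ccl4 at 18.6 to 104 TPM and 3840 to 5453 TPM (log2 fold change 6.88, standard error 0.307, FDR = 9.04e-06). Among cytokines, Csf2 rose by 3.64 (standard error 0.507, FDR = 0.00248), Il2 by 1.65 (standard error 0.174, FDR = 0.000673) and Tnf by 0.77 (standard error 0.086, FDR = 0.000842). Tnf levels overlapped between the groups, at 128 to 242 TPM without and 209 to 360 TPM with T-bet. Irf1, which encodes a transcription factor of the interferon response, rose by 1.33 (standard error 0.113, FDR = 0.000238), Myc by 0.79 (standard error 0.106, FDR = 0.00216) and Traf1, which encodes a signalling adaptor, by 1.65 (standard error 0.327, FDR = 0.0125). All 8 kept their calls without any single library except Traf1, which lost it without the second GFP + GATA3 library (FDR = 0.0561). Several of these genes, such as Ccl3 and Ccl4, are also known as targets of T-bet in TH1 cells, and a part of NF-kB in these differences was not tested.

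**Figure D4:**
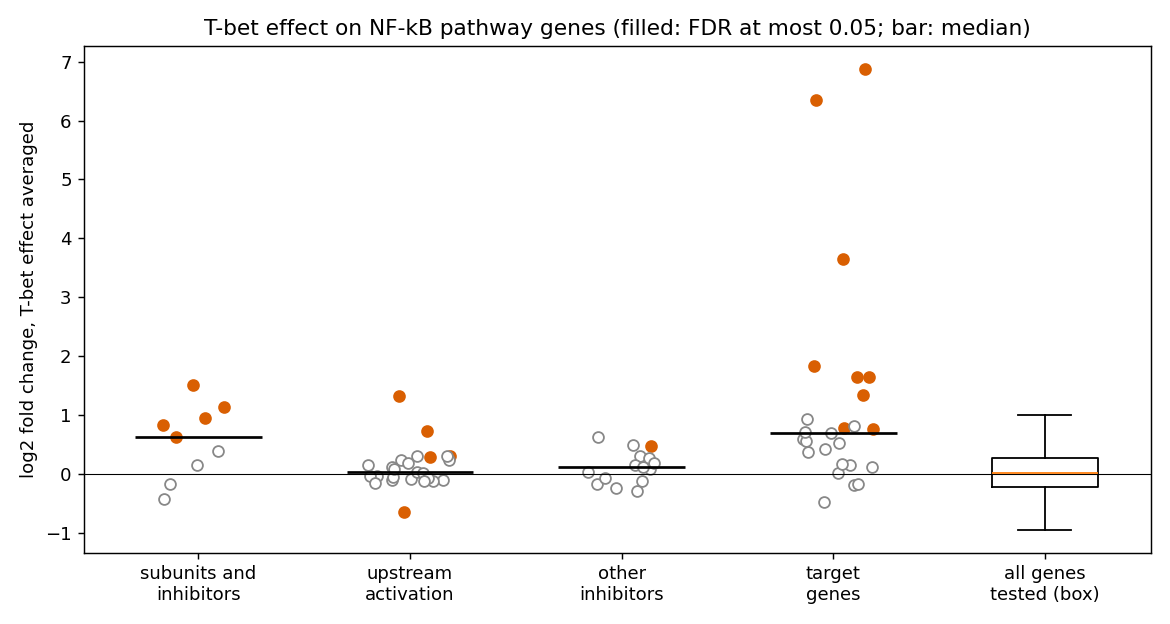
Log2 fold change for the averaged effect of T-bet (vertical axis) of each tested gene, by group: the 9 subunit and inhibitor genes, 25 upstream genes, 15 other inhibitors and 25 target genes, with filled points for an edgeR FDR of at most 0.05 and a bar for the median. The box shows the median and quartiles of all 14791 genes tested, with whiskers to 1.5 times the interquartile range and genes beyond them not drawn. The medians of the 4 groups, which were chosen with earlier results of these data known, are 0.63, 0.04, 0.12 and 0.69.

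Finally, genes whose pattern over the 8 libraries was most like that of Rel were sought among 8001 protein-coding genes with a mean of at least 10 CPM, by Pearson's r of log2 CPM. The 5 highest values were those of Rab11fip5 (r = 0.993), Mnda (r = 0.993), Lamb2 (r = 0.992), Atp10a (r = 0.991) and Dock2 (r = 0.990). Of the NF-kB genes, Nfkbie had an r of 0.969 with Rel, Nfkb1 0.966, Nfkbia 0.954 and Nfkb2 0.912. Tnfaip3 and Rela were lower, at 0.472 and 0.271, and Nfkbiz and Relb were at -0.553 and -0.673. The libraries fall into a cluster with T-bet and one without, so these values mainly order genes by how cleanly they separate the clusters, and they are given as a description.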

How the data were processed

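Poly-A+ RNA of 4 stimulated EL4 lines was sequenced by the authors as 100-base paired-end reads, and 2 libraries of each line were used here. The figure legends of the study state more biological replicates for its RNA-seq than these 2. Reads were filtered with FastQC and Trim Galore and quantified with kallisto (versions are not given in the sources used here). The Gencode transcript models were those of mm10 (M20 in the methods, M18 in the files). Per transcript, the authors deposited the estimated count, the TPM and the effective length in bases. Here estimated counts and TPM were summed per gene by the gene name in the transcript identifier, and counts were rounded. Whether the counting used strand is not given in the sources used here. Totals of 8038565 to 16003519 counts per library set the precision. The 2 libraries of each line differed by more than counting error (chi-square over its degrees of freedom, 9.71 to 28.3), so they were not copies of each other. That value cannot show separate harvests. Each library was counted as a sample because the study describes its replicates as harvests on separate days.

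Counts were filtered (filterByExpr), scaled by TMM and tested in 1 fit of the 4 lines with edgeR 4.0.16 (glmQLFit and glmQLFTest, R 4.3.3), with Benjamini-Hochberg adjustment over 14791 genes and a threshold of 0.05. Standard errors were taken as the log2 fold change over the root of F, so intervals are approximate. The effect of each factor was tested in each pair of lines, averaged over both, and as an interaction. Alternatives were DESeq2 1.42.0, limma 3.58.1 on log2(TPM + 1), which understates changes of low genes, other filters and scaling, effective lengths as offsets, a replicate block, and each library left out. Scripts were tested on simulated data. Tables were handled in Python 3.11.15 with pandas 2.3.3 and numpy 2.4.6, and plots with matplotlib 3.10.9.

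The 10 genes and the lists of upstream, inhibitor and target genes were chosen with earlier results of these data known. Of each list, the genes called in the averaged effect of T-bet were named, up to 8 by smallest p, or the 3 of smallest p where fewer than 3 were called. Gene positions are from Gencode M21 (GRCm38) and promoters from RefSeq. The result for 1 upstream gene that passed is not reported here.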

Additional observations from a re-analysis of the deposited data

How the results depend on the processing

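In the averaged effect of T-bet, Rel, Nfkbia, Nfkbie and Nfkb1 passed under all 15 alternatives. Over the 72 values of the 9 NF-kB genes in 8 comparisons, 1011 of 1080 pairs of value and alternative kept direction and side of the threshold, 24 lost the call, 6 gained it and 39 changed sign, all of them uncalled values. Of the 35 values that the text turns on, the sign changed in 6 pairs: Rela in T-bet + Plum against GFP + Plum (-0.014 without the first GFP + Plum and -0.059 without the second T-bet + Plum library) and in T-bet + GATA3 against GFP + GATA3 (-0.025 with limma), Relb in the latter (0.001 without the second GFP + GATA3 library), and Tnfaip3 in the latter (-0.139 with limma and -0.113 without the first T-bet + GATA3 library). Without single libraries these ranged from -0.059 to 0.325 for the first, from -0.21 to 0.001 for Relb and from -0.113 to 0.278 for Tnfaip3. Requiring a log2 fold change above 1.5 in size left 0 of the NF-kB genes in T-bet + Plum against GFP + Plum, 1 in T-bet + GATA3 against GFP + GATA3, 1 in the averaged effect and 0 in T-bet + GATA3 against GFP + Plum, where limma called 2. With no fold threshold the counts were 1 to 4, 2 to 4, 4 to 5 and 3 to 4 in the same order when single libraries were left out, and 0 for the other comparisons.

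Counts over all genes moved more. T-bet + Plum against GFP + Plum gave 917 genes, 1964 with no filter on low counts, 490 with limma, 446 with the fold threshold and 262 to 975 without single libraries. For T-bet + GATA3 against GFP + GATA3 these were 854, 1936, 549, 421 and 234 to 1055, and for T-bet + GATA3 against GFP + Plum 721, 1698, 375, 386 and 384 to 575. The averaged effect of T-bet gave 2242, 666 with the fold threshold and 1239 to 2403. For HA-GATA3, GFP + GATA3 against GFP + Plum gave 3 genes, 56 with DESeq2, 293 with no filter and 0 to 5 without single libraries. T-bet + GATA3 against T-bet + Plum gave 5, 38, 228, 11 with limma and 1 to 9. The averaged effect gave 9, 83, 373 and 5 to 18, and the interaction 0, 15, 145, 1 with limma and 0 to 3.

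The labels do not say whether equal replicate numbers mark shared days. Correlations of same-numbered deviations between lines ran from -0.0455 to 0.302, and only that of T-bet + Plum with T-bet + GATA3 was below 0. A replicate effect shared by the lines was fitted as a block but was not itself tested. Rela and Nfkb1 were higher in the second library of every line, in TPM and CPM, and Nfkbia and Tnfaip3 in the first. The other NF-kB genes tested had no such order in all lines. With replicate number as a block, no call of an NF-kB gene changed, and the counts over all genes were 1440, 1379 and 1110 in the 3 pairs with T-bet in the order above, 6 in GFP + GATA3 against GFP + Plum and 19 in the averaged effect of HA-GATA3. In the averaged effect of T-bet the block called 3063 of 14791 genes, against 2242 without it. It called 4 of 15 other inhibitors and 15 of 25 target genes there.

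Alternatives for the lists, chosen after seeing the data apart from DESeq2, library size and the block, gave for the 5 upstream genes 3 with DESeq2, 3 with library size, 3 with no filter, 2 with length offsets, 1 with limma and 1 to 4 without single libraries. The 1 other inhibitor became 2, 0, 3 and 0 with DESeq2, library size, no filter and limma, 2 with at least 10 counts in every library and 0 to 2 without single libraries. The 9 target genes became 17 with no filter and 7 to 12. The causes of these shifts were not tested. With a library left out, the lone library of a line is assumed to vary like the others. Only 4 residual degrees of freedom were available, and genes such as Bcl3 were limited by depth.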

Other observations

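The NF-kB target genes outside the 10 were also read for HA-GATA3. In GFP + GATA3 against GFP + Plum, 20 of 25 had a log2 fold change below 0, the median was -0.62, and 8 had an unadjusted p below 0.05 in edgeR's test, but 0 passed the adjustment (smallest FDR = 0.144). Of all 14791 genes, 7519 were below 0, 547 had such a p and 3 passed. In the effect of HA-GATA3 averaged over both pairs of lines, 20 of 25 were below 0, with a median of -0.28 and a smallest FDR of 0.0581, against 7537 of 14791 genes. Il2 is an example, at 178 and 171 TPM in GFP + Plum and 85 and 78.6 TPM in GFP + GATA3. In the interaction, 21 of 25 were above 0 with a median of 0.46, and 4 had an unadjusted p below 0.05, against 7505 and 381 of all genes. These comparisons share libraries.

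As a share of all TPM, the 10 NF-kB genes together took 0.0485% to 0.055% of each library without T-bet and 0.0757% to 0.0903% of each library with it. Pdlim2, which encodes a nuclear ligase for p65, was the only other inhibitor that passed in T-bet + GATA3 against GFP + GATA3. In that comparison 303 of 14791 genes fell, and Pdlim2 had a log2 fold change of -0.67, near the threshold (edgeR FDR = 0.046). It was at 34.5 and 31.6 TPM in GFP + GATA3 and at 17.7 to 24 TPM in the other 6 libraries, and its log2 fold change without HA-GATA3 was 0.09 (FDR = 0.822). Pdlim2 was named after its value was seen.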
